A study of Homo sapiens with 12 samples.

Results

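The 3 si-FGF9 libraries of HK2 cells were compared directly with the 3 HG+OE-FGF9 libraries, which are 6 of the 12 libraries of the series. HK2 is an immortalised line from the human proximal tubule. The si-FGF9 cells received an siRNA against FGF9 in 5.5 mM glucose, and the HG+OE-FGF9 cells received a lentivirus vector carrying FGF9 in 50.0 mM glucose. The labels name 1 growth medium and lipofectamine as the transfection reagent, and the study also speaks of mannitol in its normal-glucose condition without saying which libraries had it, so that the osmolarity of the si-FGF9 medium is uncertain. A control vector is described for the NG cells alone and no control siRNA is described, so that neither group of this comparison has its own control in it. The siRNA, the vector and the glucose all differ between the groups, and their contributions cannot be told apart. Genes with at least 1 TPM (transcripts per 1000000, a level relative to transcript length and to all RNA of the library) in 3 or more of the 6 libraries were kept, which left 12656 of 62703 gene identifiers. Every log2 fold change below is si-FGF9 minus HG+OE-FGF9 on the log2(TPM + 1) scale, with its standard error (SE) from limma and its Benjamini-Hochberg adjusted p over all genes tested. A gene passed when its log2 fold change was at least 1 in either direction and its unadjusted p was below 0.01.

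FGF9 is a secreted fibroblast growth factor. Such ligands bind FGF receptors together with heparan sulphate, and the receptors signal through adaptor proteins and RAS to the MEK and ERK kinases, whose activity induces early response genes and feedback inhibitors. In the kidney, FGF9 is known for keeping nephron progenitors during development. In the adult tubule, loss of epithelial features together with gain of mesenchymal ones and deposition of matrix is known as the epithelial-to-mesenchymal transition (EMT), which the study set out to relate to FGF9 under high glucose.

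The strand of the siRNA is shown because it defines the si-FGF9 group. Capitals mark the 19 bases that read the same as the FGF9 mRNA, and the lower-case letters are the overhang.
si-FGF9: CUAUGUUGCAUUAAAUAAAtt
In GENCODE release 29 these bases were found in 2 of the 3 annotated transcripts of FGF9 and in 0 transcripts of other genes among 206694 searched. On GRCh38 the target lies on the plus strand of chromosome 13 from 21701294 to 21701312, in exon 3 of 3 of the coding transcript, starting at base 486 of its 624 coding bases. Sites with mismatches were not searched.

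FGF9 itself (ENSG00000102678, chromosome 13 from 21671383 to 21704498) was listed at 0 TPM in all 3 si-FGF9 libraries. In HG+OE-FGF9 it was 3.34, 4.03 and 3.82 TPM. The groups did not overlap. FGF9 was the target of both manipulations and met the minimum through HG+OE-FGF9 alone, so that no p-value is given for it. No fold is given against a group at 0. On the same TPM scale and in the same group, the ligand FGF2 was higher at 11.3 ± 1.77 TPM (SD, n = 3), the ligand FGF1 was close at 3.95 ± 1.32 TPM, and the receptor FGFR2 was lower at 1.7 ± 0.28 TPM. The files do not tell whether reads from the vector could be assigned to FGF9.

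The libraries of each group were closer to each other than to those of the other group. On log2(TPM + 1), Pearson's r ran from 0.9723 to 0.9842 within si-FGF9, from 0.9534 to 0.9911 within HG+OE-FGF9 and from 0.9146 to 0.9365 between groups. The first principal component held 62.31% of the variance and separated the groups, and the second held 20.28% and set HG+OE-FGF9 replicate 3 apart. Among 5281 genes with a mean of at least 10 TPM, HG+OE-FGF9 replicates 1 and 2 differed at least 2-fold on the log2(TPM + 1) scale in 28, whereas replicate 3 differed from them in 337 and 348. Replicates 1 and 2 had identical TPM in 0.284% of these genes and were kept as separate samples. The labels do not say whether replicates were separate cultures, so that p-values measure the spread between these libraries, which may be technical. Genes at 1 TPM or more numbered 11549 to 12013 in si-FGF9 and 13008 to 13236 in HG+OE-FGF9. The depth of each library is unknown, because TPM keep no record of it.

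The cells carried some general markers of tubular epithelium, lacked others, and carried few of the mature proximal tubule. Of the epithelial genes, CDH1, CLDN7 and ESRP1 did not exceed 0.2, 0.14 and 0.13 TPM, and GRHL2 and OVOL1 were at 0 in all 6 libraries. VIM, a mesenchymal gene, was abundant in both groups, as given below. KRT8, a keratin of simple epithelia, was 459 ± 67.8 TPM in si-FGF9 and 502 ± 12.7 TPM in HG+OE-FGF9 (SD, n = 3 each), and PAX8, a transcription factor of nephron epithelium, was 39.5 ± 3.16 and 26.3 ± 10.1 TPM. Of 28 proximal tubule genes, 10 reached the minimum. LRP2 and CUBN, the endocytic receptors that define that segment, did not exceed 0 and 0.02 TPM. Of 23 markers of podocytes, distal nephron, endothelium, stroma and blood cells, 3 were tested. In limma 0 passed, and 1 had an unadjusted p below 0.05. Their summed level was 117 to 141 TPM in si-FGF9 and 169 to 172 TPM in HG+OE-FGF9, nearly all of it from CD68, a lysosomal protein, and UMOD, AQP2, KDR, PDGFRA and PTPRC were at 0 in all 6 libraries. In bulk RNA, a lower level per cell and fewer cells expressing a gene cannot be told apart.

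Of the 12656 genes tested, 1301 (10.3%) passed. In si-FGF9, 255 (2.01%) were higher and 1046 (8.26%) were lower. These shares are the background for the counts of list members below. All 1301 had an adjusted p below 0.05, the largest being 0.0391, and 1299 showed no overlap between the groups. Over all genes tested, the median log2 fold change was -0.26, so that most genes stood slightly lower in si-FGF9 on the TPM scale. Scaling the libraries by the median of ratios moved this median by 0.25 to -0.01. It gave 1079 genes (8.53%), with 548 higher (4.33%) and 531 lower (4.2%) in place of 255 and 1046. The split between the directions therefore rests on the scaling. All of the 255 higher genes and 531 of the lower genes passed under both. The plot of group means for all genes shows this spread.

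**Figure D1:**
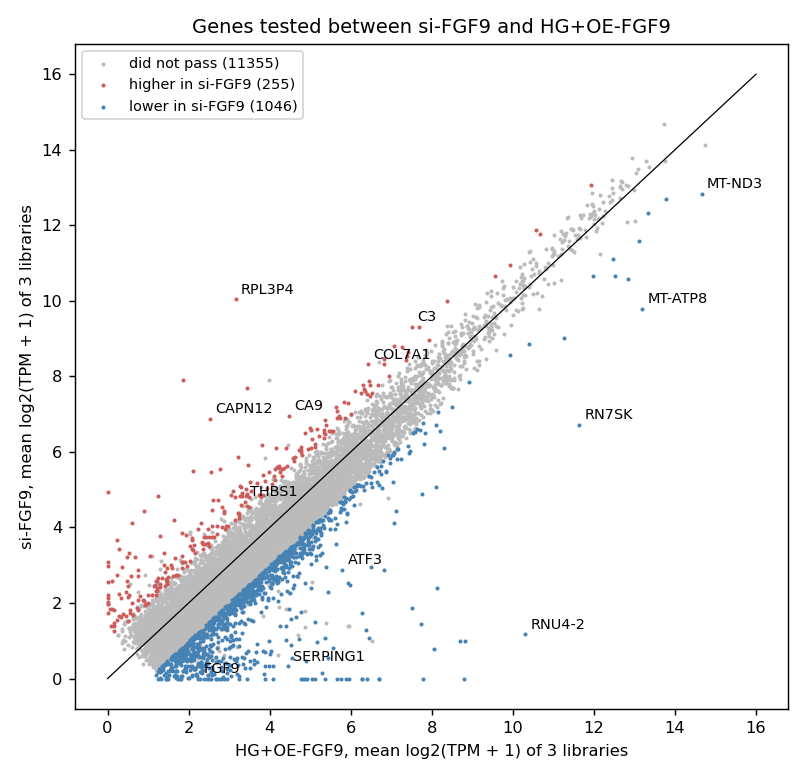
Mean log2(TPM + 1) of the 3 si-FGF9 libraries (vertical axis) against that of the 3 HG+OE-FGF9 libraries (horizontal axis) for the 12656 genes tested. Red points are the 255 genes that passed as higher in si-FGF9, blue points the 1046 that passed as lower and grey points the rest. The line marks equal levels, and small noncoding RNAs such as RNU4-2 lie farthest below it.

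The share of genes that passed depended on the class of RNA. Of 10796 protein-coding genes 8.73% passed, against 17.9% of 1191 long noncoding genes and 14.9% of 262 pseudogenes. GC content and transcript length were nearly unrelated to the log2 fold change across genes (Spearman's rho 0.03 and 0.05, a description over 12337 genes of the same 6 libraries).

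Among protein-coding genes, the largest differences towards si-FGF9 were in CAPN12, a calpain protease (ENSG00000182472, chromosome 19 from 38730187 to 38769904 on GRCh38). Its levels were 111, 112 and 129 TPM in si-FGF9 and 9.84, 10.0 and 0.57 TPM in HG+OE-FGF9. Every si-FGF9 library of CAPN12 exceeded every HG+OE-FGF9 library by a wide margin, and the log2 fold change was 4.37 (SE 0.68, adjusted p = 0.00473). CA9, a cell surface carbonic anhydrase known as a hypoxia marker, had 117, 117 and 138 TPM in si-FGF9 against 19.95, 19.19 and 25.09 TPM. This was a log2 fold change of 2.48 (SE 0.15, adjusted p = 3.13e-04), with little spread within either group. LDLRAD2, a gene with an LDL receptor class A domain, had 42.9, 48.9 and 46.2 TPM against 6.90, 6.74 and 4.11 TPM and a log2 fold change of 2.79 (SE 0.20). GRB14, an adaptor that binds receptor tyrosine kinases including the insulin receptor, had 63.3, 49.5 and 38.4 TPM against 9.33, 7.34 and 14.5 TPM and a log2 fold change of 2.19 (SE 0.27). The groups did not overlap in either gene. UGGT1, the folding sensor of glycoproteins in the endoplasmic reticulum, was 26.5 ± 8.81 TPM in si-FGF9 and 5.38 ± 2.79 TPM in HG+OE-FGF9. CTIF, a factor of cap-binding-complex-dependent translation, was 25.4 ± 2.97 and 5.62 ± 0.622 TPM. The rest of the 12 named by rank had log2 fold changes between 1.87 and 2.54. They were BCL2L2-PABPN1, PRTN3, FNBP4, COL7A1, MPHOSPH9 and MMP7. BCL2L2-PABPN1 is annotated as a readthrough of BCL2L2 and PABPN1, and its reads cannot be kept apart from theirs with certainty.

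In the other direction, SERPING1, the inhibitor of complement C1 (ENSG00000149131, chromosome 11 from 57597387 to 57614853), was nearly absent from si-FGF9 at 0.23, 0.43 and 0.12 TPM. In HG+OE-FGF9 it was 35.5, 37.8 and 6.25 TPM, with replicate 3 the lowest, and the log2 fold change was -4.12 (SE 0.59, adjusted p = 0.00382). PHACTR1, a regulator of actin and protein phosphatase 1, had 0.54, 0.50 and 0.34 TPM against 29.4, 32.0 and 11.6 TPM and a log2 fold change of -4.00 (SE 0.36). TDP1, which repairs DNA ends blocked by topoisomerase I, had 4.77, 4.96 and 4.46 TPM against 89.6, 84.6 and 28.6 TPM and a log2 fold change of -3.42 (SE 0.40). In these genes HG+OE-FGF9 replicate 3 lay well below its 2 companions and still above every si-FGF9 library. The same order was seen for CCDC57, SENP7, ZNF583, FAAH, ZNF347 and FRMPD1, with log2 fold changes between -3.95 and -3.01. HSPA6, a strictly stress-inducible HSP70, had 15.9, 11.3 and 1.21 TPM against 116, 111 and 56.6 TPM (log2 fold change -3.56, SE 0.70, adjusted p = 0.00971). AIMP2, a scaffold protein of the tRNA synthetase complex, had 2.10, 1.87 and 3.28 TPM against 25.8, 25.0 and 29.1 TPM, without overlap. Its log2 fold change was -3.04 (SE 0.20, adjusted p = 3.98e-04).

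Among genes that passed, the largest difference of mean TPM towards si-FGF9 was in S100A6, a calcium-binding protein, at 8529 ± 656 TPM in si-FGF9 and 3907 ± 436 TPM in HG+OE-FGF9. Its log2 fold change was 1.13 (SE 0.11, adjusted p = 0.0015). HLA-B, which presents peptides to T cells, had 1726, 1638 and 1451 TPM against 713, 698 and 849 TPM and a log2 fold change of 1.09 (SE 0.12). C3, the central protein of complement, was chosen after its values were seen. It had 703, 630 and 582 TPM in si-FGF9 against 173, 174 and 201 TPM, a log2 fold change of 1.80 (SE 0.11, adjusted p = 3.80e-04). SAA1, an acute phase protein that was also chosen after its values were seen, was 444 ± 39.2 and 135 ± 21 TPM (log2 fold change 1.72, SE 0.14).

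Among FGF ligands, receptors and coreceptors, the share that passed was near the background. Of 21 FGF ligands, receptors and coreceptors, 12 were tested. Only FGF9, the target of both manipulations, passed, beside 10.3% of all genes. The median log2 fold change of these 12 was -0.04, beside -0.26 for all genes. FGF1, a ligand of all FGF receptors, was 1.6 ± 1.31 TPM in si-FGF9 and 3.95 ± 1.32 TPM in HG+OE-FGF9 and the groups overlapped (adjusted p = 0.101). FGFR3, which binds FGF9 with high affinity, had 4.47, 4.96 and 4.91 TPM in si-FGF9 against 1.95, 2.03 and 2.59 TPM. The groups did not overlap, and the log2 fold change of 0.86 (SE 0.18, adjusted p = 0.013) was below the minimum of 1. With median-of-ratios scaling, FGFR3 and GPC1, a heparan sulphate proteoglycan, passed at 1.10 each. FGFR1 was 4.13 ± 0.0586 and 5.89 ± 1.32 TPM (adjusted p = 0.157), FGFR2 was 2.6 ± 0.494 and 1.7 ± 0.28 TPM (adjusted p = 0.149) and FGFR4 was 8.36 ± 1.4 and 8.09 ± 2.71 TPM (adjusted p = 0.851).

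The MEK kinases stood on opposite sides, with MAP2K1 at -0.99 (SE 0.20, adjusted p = 0.0106) and MAP2K2 at 0.84 (SE 0.11, adjusted p = 0.00286), both under the minimum. MAP2K2 passed at 1.15 with median-of-ratios scaling. Beside 8.26% lower and 2.01% higher of all genes, 1 of 18 feedback inhibitors and targets of ERK was lower and 0 higher. This was EPHA2, an ephrin receptor, at 8.77, 8.97 and 14.4 TPM against 25.1, 24.6 and 34.8 TPM (log2 fold change -1.33, SE 0.23, adjusted p = 0.00661). DUSP5, a nuclear phosphatase of ERK, reached -0.91 (SE 0.14, adjusted p = 0.00437). DUSP6, the phosphatase of ERK in the cytosol, was 2.52 ± 1.09 and 3.48 ± 1.71 TPM (adjusted p = 0.475), and SPRY4, a feedback inhibitor, was 0.72 ± 0.238 and 1.49 ± 0.448 TPM (adjusted p = 0.088). The median of these 18 was -0.19, and it was 0.05 with median-of-ratios scaling.

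Of 22 immediate early genes, whose transcription follows growth factor or stress signals within minutes, 5 were lower and 1 higher in si-FGF9. Among all genes 8.26% were lower and 2.01% higher. The median log2 fold change was -0.46, beside -0.26 for all genes. All 22 were at 1 TPM or more in all HG+OE-FGF9 libraries and 17 in all si-FGF9 libraries. ATF3, a stress-induced repressor of the CREB family (ENSG00000162772, chromosome 1 from 212565334 to 212620777), had 6.04, 7.91 and 5.45 TPM in si-FGF9. In HG+OE-FGF9 it had 61.3, 63.5 and 41.5 TPM. No library of either group came near the other group, and the log2 fold change was -2.91 (SE 0.21, adjusted p = 5.33e-04). FOSB, a subunit of AP-1, had 0.67, 0.32 and 0.63 TPM against 3.92, 4.03 and 2.70 TPM (log2 fold change -1.56, SE 0.21). CCN2, a matricellular protein also called CTGF, was 8.21 ± 1.34 and 21.8 ± 7.86 TPM, and KLF2 and IER5 were at -1.10 and -1.02. JUND, the AP-1 subunit linked to quiescence, went the other way with 235, 243 and 178 TPM against 81.1, 86.0 and 66.8 TPM (log2 fold change 1.47, SE 0.16, adjusted p = 0.00174). FOS was 4.62 ± 1.72 and 6.3 ± 1.51 TPM (adjusted p = 0.314). EGR1, a classical target of ERK, was near the minimum in HG+OE-FGF9 at 1.18 ± 0.00577 TPM and 0.327 ± 0.29 TPM in si-FGF9 (log2 fold change -0.74, adjusted p = 0.0277). ATF3 and FOSB alone of the lower genes passed with median-of-ratios scaling. Without HG+OE-FGF9 replicate 3 the lower count was 3, as CCN2 and IER5 no longer passed, and IER5 was also lost without si-FGF9 replicate 3 and KLF2 without HG+OE-FGF9 replicate 2.

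LOX, HIF1A, THBS1, TGFB2 and ITGB1 are the genes that the study singled out from these libraries, so that they are not independent evidence of a direction. Of these 5, THBS1, an activator of latent TGF-beta, passed and was higher in si-FGF9. It had 25.5, 29.2 and 19.9 TPM against 7.38, 7.98 and 14.2 TPM, without overlap (log2 fold change 1.29, SE 0.26, adjusted p = 0.0105). LOX, the enzyme that crosslinks collagen, had 39.8, 47.3 and 38.6 TPM against 26.4, 21.9 and 23.8 TPM. These groups did not overlap either, and the log2 fold change of 0.78 (SE 0.14, adjusted p = 0.00785) was under the minimum and reached 1.08 with median-of-ratios scaling. ITGB1, an integrin receptor subunit for matrix, had 102, 116 and 53.9 TPM against 43.8, 44.5 and 114 TPM. Here si-FGF9 replicate 3 fell among the HG+OE-FGF9 libraries, HG+OE-FGF9 replicate 3 among the si-FGF9 libraries, and the adjusted p was 0.389. TGFB2, a TGF-beta ligand, had the same crossing at 11.03, 11.22 and 4.57 TPM against 4.88, 5.00 and 9.29 TPM (adjusted p = 0.443). HIF1A, the oxygen-regulated transcription factor, was 39 ± 11.8 and 40.9 ± 18.8 TPM (log2 fold change -0.03, SE 0.33, adjusted p = 0.961).

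**Figure D2:**
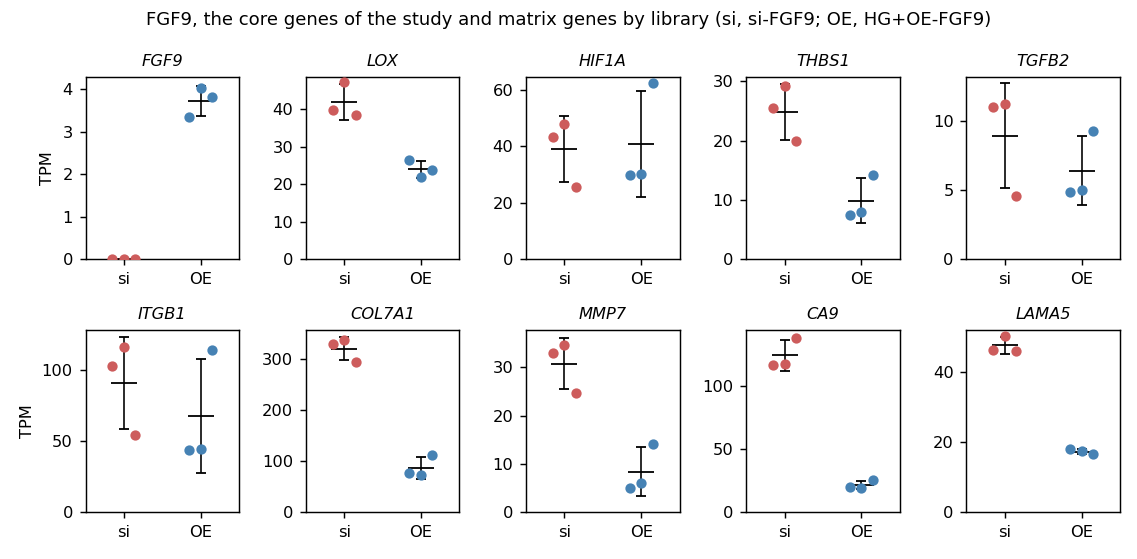
TPM in each si-FGF9 (si, red) and HG+OE-FGF9 (OE, blue) library for FGF9, the 5 genes the study singled out, and COL7A1, MMP7, CA9 and LAMA5, each panel on its own axis from 0. Points are libraries in the order of their replicate numbers, horizontal bars group means and vertical bars 1 SD (n = 3). The groups overlap for HIF1A, TGFB2 and ITGB1 and are apart for the other 7 genes.

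Matrix genes had the highest median log2 fold change of the lists, towards si-FGF9. Of 29 matrix proteins and matrix enzymes tested, 5 were higher and 0 lower, beside 2.01% and 8.26% of all genes. Their median log2 fold change was 0.71, beside -0.26 for all genes. COL7A1, the collagen of anchoring fibrils (ENSG00000114270, chromosome 3 from 48564073 to 48595267), had 328, 336 and 294 TPM in si-FGF9 and 75.7, 72.3 and 112 TPM in HG+OE-FGF9. This gave a log2 fold change of 1.90 (SE 0.17, adjusted p = 0.001). MMP7, a matrix protease that injured tubules produce, had 33.1, 34.6 and 24.7 TPM against 5.06, 5.95 and 14.1 TPM (log2 fold change 1.87, SE 0.34, adjusted p = 0.00741). Its HG+OE-FGF9 replicate 3 was the highest of its group and remained below si-FGF9. COL5A1, which regulates the diameter of collagen fibrils, was 43.5 ± 7.86 and 14.8 ± 1.17 TPM. LAMA5, a laminin chain of tubular basement membrane, was 47.5 ± 2.37 and 17.2 ± 0.709 TPM, and P4HA1, a collagen prolyl hydroxylase, was 97.3 ± 30.6 and 45.4 ± 9.32 TPM (adjusted p = 0.021). Below the fold threshold, COL6A1 reached 0.97 (SE 0.12, adjusted p = 0.00279) and TIMP1, an inhibitor of matrix proteases, 0.72 (SE 0.11, adjusted p = 0.00385). P4HA1 no longer passed when either of the first 2 replicates of either group was left out. With median-of-ratios scaling 14 members passed as higher and 0 as lower, beside 4.33% and 4.2% of all genes. Without HG+OE-FGF9 replicate 3 the higher count was 10. In 16 of the 29 genes all si-FGF9 libraries lay above all HG+OE-FGF9 libraries, against 10.2% of all genes tested. The summed TPM of the list was 4409, 4368 and 4215 in si-FGF9, against 2564, 2544 and 2893 for HG+OE-FGF9. The exact two-sided permutation test gave p = 0.1, the smallest value that 3 against 3 libraries allow.

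Of 8 integrin subunits, 0 passed in limma, although 3 had an unadjusted p below 0.05 and the median was 0.38. With median-of-ratios scaling 3 were higher, and without HG+OE-FGF9 replicate 3 the count was 2. ITGA3, a laminin-binding subunit, came nearest among the abundant ones at 390.4 ± 20.5 and 239 ± 55.8 TPM (log2 fold change 0.73, adjusted p = 0.0141). TGFB1, a TGF-beta ligand, had 153, 148 and 163 TPM against 93.4, 92.2 and 88.7 TPM, a log2 fold change of 0.75 (SE 0.10, adjusted p = 0.0032) that passed at 1.06 with median-of-ratios scaling. Its groups did not overlap.

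Epithelial and mesenchymal genes did not divide by direction. Beside 2.01% higher and 8.26% lower of all genes, 2 of 18 epithelial genes were higher and 0 lower in si-FGF9. These were CDH6, a cadherin of the proximal tubule, with 98.0, 107 and 67.9 TPM against 20.7, 21.9 and 49.9 TPM (log2 fold change 1.62, SE 0.33, adjusted p = 0.0113), and MUC1, an apical mucin, at 10.8 ± 1.36 and 3.45 ± 0.687 TPM. CDH1, which encodes E-cadherin, did not exceed 0.2 TPM and was not tested. The tight junction gene CLDN1 was 13.7 ± 0.275 and 27.9 ± 7.66 TPM, a log2 fold change of -0.95 (SE 0.20, adjusted p = 0.0117). Of 17 mesenchymal genes, 1 was higher and 1 lower, beside the same shares of all genes. MMP2, a gelatinase, was higher at 2.68, 6.13 and 5.29 TPM against 1.24, 1.20 and 1.22 TPM (log2 fold change 1.31, SE 0.27), and SNAI1, a repressor of E-cadherin, lower at 8.88, 9.87 and 8.65 TPM against 21.3, 20.9 and 17.1 TPM (log2 fold change -1.03, SE 0.16). SNAI1 did not pass with median-of-ratios scaling, at -0.74, nor without si-FGF9 replicate 3 or HG+OE-FGF9 replicate 1 or 2. ACTA2, which encodes alpha smooth muscle actin, was 2.08 ± 0.69 and 3 ± 0.632 TPM (adjusted p = 0.233), and VIM 1477 ± 72.2 and 1238 ± 222 TPM (adjusted p = 0.16). FN1, fibronectin, had 1451, 1751 and 1266 TPM against 560, 567 and 1942 TPM, with HG+OE-FGF9 replicate 3 above all other libraries (adjusted p = 0.207). The list medians were -0.21 and -0.01, and both were above 0 with median-of-ratios scaling, at 0.09 and 0.28. This scaling moved the median of every list plotted upward, as the plot of all lists shows, and turned several others from below to above 0, among them those of the FGF, NRF2 and NF-kappaB lists at 0.25, 0.07 and 0.02.

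**Figure D3:**
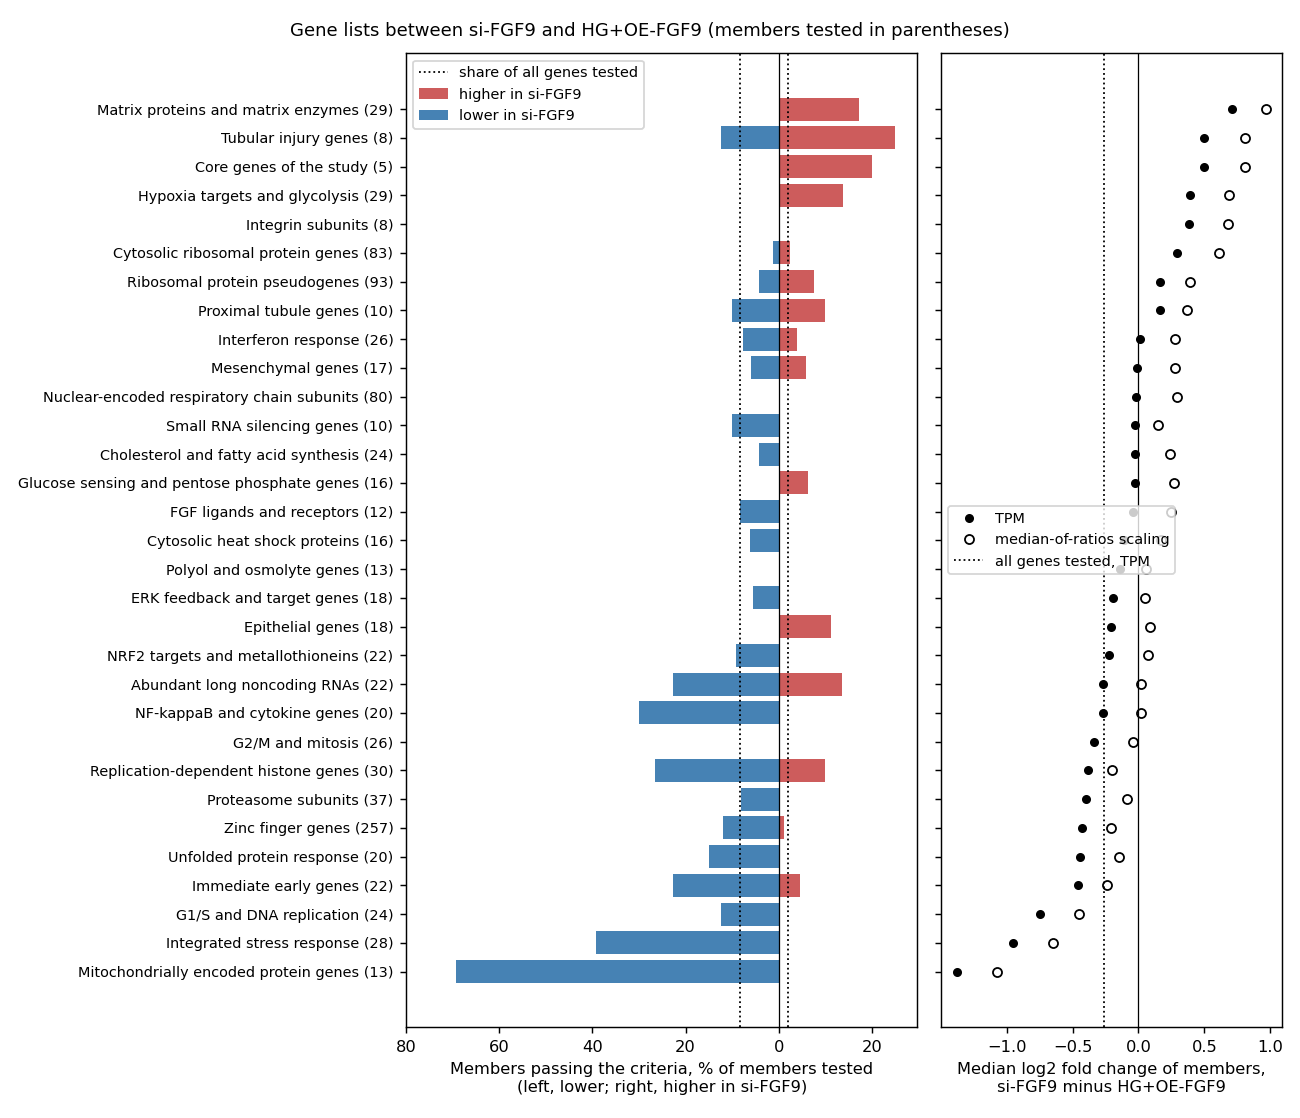
Left, share of the tested members of the gene lists shown that passed as lower (blue, leftward) or higher (red, rightward) in si-FGF9, with dotted lines at the shares of all genes tested, 8.26% and 2.01%. Right, median log2 fold change of each list on TPM (filled) and with median-of-ratios scaling (open), where the dotted line is the median of all genes on TPM, -0.26. Matrix genes head the list of medians, and the integrated stress response and mitochondrially encoded genes close it.

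Hypoxia targets and glycolytic genes, many of which HIF1A drives, leaned towards the si-FGF9 group. The median log2 fold change of the 29 tested was 0.39, and 0.69 with median-of-ratios scaling. Of them, 4 were higher and 0 lower, beside 2.01% and 8.26% of all genes. Besides CA9, these were PFKFB4, an enzyme that sets the level of fructose 2,6-bisphosphate, ENO2, an enolase, and BNIP3, a mitophagy receptor. ENO2 had 180, 187 and 199 TPM in si-FGF9 against 74.1, 70.7 and 82.6 TPM (log2 fold change 1.31, SE 0.11, adjusted p = 9.12e-04). BNIP3 had 218, 236 and 202 TPM against 96.2, 95.8 and 112 TPM (log2 fold change 1.10, SE 0.12), and PFKFB4 was 6.65 ± 1.26 and 1.81 ± 0.435 TPM. Other targets of HIF1A did not pass. VEGFA was 44.1 ± 6.45 and 38.5 ± 7.92 TPM (adjusted p = 0.437), and EGLN3, an oxygen sensor, was 0.493 ± 0.085 and 1.19 ± 0.145 TPM (log2 fold change -0.55, adjusted p = 0.0393). GAPDH, often used as a reference gene, was 14148 ± 1149 TPM in si-FGF9 and 7846 ± 125 TPM in HG+OE-FGF9. Its log2 fold change of 0.85 (SE 0.09, adjusted p = 0.00174) reached 1.16 and passed with median-of-ratios scaling.

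The genes of glucose sensing and the pentose phosphate pathway had a median near 0. Of 16 genes of glucose sensing and the pentose phosphate pathway, 1 passed, beside 10.3% of all genes, and their median was -0.03. It was SLC2A3, the neuronal-type glucose transporter GLUT3, with 112.65, 105.05 and 74.95 TPM in si-FGF9 and 36.0, 35.1 and 33.2 TPM in HG+OE-FGF9 (log2 fold change 1.44, SE 0.17, adjusted p = 0.00215). TXNIP, which glucose induces through MLXIPL and MLXIP, had 586, 656 and 522 TPM in 5.5 mM glucose against 303, 307 and 587 TPM in 50.0 mM (adjusted p = 0.0925). Of 13 polyol and osmolyte genes, 0 passed in limma, 4 had an unadjusted p below 0.05, and the median was -0.14. AKR1B1, aldose reductase, was 449 ± 49.8 and 634 ± 371 TPM (adjusted p = 0.451), where 1062 TPM in HG+OE-FGF9 replicate 3 stood apart from 420 TPM in replicates 1 and 2. Of 24 genes of cholesterol and fatty acid synthesis, FASN, fatty acid synthase, alone passed and was lower in si-FGF9 at 3.6 ± 0.192 against 9.66 ± 2.61 TPM. It did not pass without HG+OE-FGF9 replicate 3 or with median-of-ratios scaling, and the list median was -0.03.

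The integrated stress response had the largest share of lower members among the lists of nuclear protein-coding genes. In this response, kinases that sense amino acid shortage or misfolded protein phosphorylate eIF2, and translation of ATF4 mRNA rises and switches on amino acid transport, synthesis and tRNA charging. All 28 listed genes were tested, and 11 were lower and 0 higher in si-FGF9, with a median log2 fold change of -0.95. All 28 were at 1 TPM or more in all HG+OE-FGF9 libraries and 26 in all si-FGF9 libraries. CHAC1 and SLC7A11, both among the 11, met the minimum through HG+OE-FGF9 alone, which can tilt this count and median. The background is 8.26% lower among all genes. Scaled by the median of ratios, 8 were lower with a median of -0.65, and without HG+OE-FGF9 replicate 3 the count was 10. Over all 21 alternative settings it ran from 7 to 17. In 22 of the 28, all si-FGF9 libraries lay below all HG+OE-FGF9 libraries, against 38.8% of all genes tested.

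CHAC1, which degrades glutathione (ENSG00000128965, chromosome 15 from 40952962 to 40956519), had 0.35, 0.73 and 0.87 TPM in si-FGF9 and 4.55, 5.64 and 4.76 TPM in HG+OE-FGF9. It had the largest log2 fold change of the list at -1.87 (SE 0.20, adjusted p = 0.00186). The chains of the leucine transporter moved together. SLC7A5, the transporting chain, had 7.65, 8.48 and 10.5 TPM against 31.7, 32.0 and 31.2 TPM (log2 fold change -1.73, SE 0.16). SLC3A2, the partner chain, had 77.0, 77.0 and 67.3 TPM against 242, 236 and 195 TPM (log2 fold change -1.59, SE 0.13, adjusted p = 6.44e-04). Neither chain overlapped between groups. SLC7A11, which shares that partner and imports cystine, was 0.74 ± 0.0346 and 2.77 ± 1.05 TPM (log2 fold change -1.07, SE 0.25). SLC7A11 did not pass with median-of-ratios scaling, nor without si-FGF9 replicate 3 or HG+OE-FGF9 replicate 1 or 2.

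Signalling genes of the response followed. SESN2, an inhibitor of mTORC1 that senses leucine, had 3.83, 3.88 and 9.46 TPM against 19.4, 19.8 and 16.9 TPM (log2 fold change -1.65, SE 0.30). TRIB3, a pseudokinase that restrains ATF4, had 45.6, 49.8 and 73.9 TPM against 167, 167 and 122 TPM (log2 fold change -1.43, SE 0.21). In both genes si-FGF9 replicate 3 was the highest of its group and HG+OE-FGF9 replicate 3 the lowest of its own, with a gap between them. The secreted members GDF15 and STC2 were at -1.47 (SE 0.19) and -1.42 (SE 0.12), with GDF15, a stress hormone, at 62.3 ± 5.54 and 177 ± 42.8 TPM. NUPR1, a small stress-induced chromatin protein, was at -1.29 (SE 0.27). Among the enzymes, ASNS, asparagine synthetase, had 55.9, 57.3 and 66.1 TPM against 132, 135 and 129 TPM (log2 fold change -1.13, SE 0.11, adjusted p = 0.00152), and WARS1, a tRNA synthetase, was at -1.04 (SE 0.14). Neither ASNS nor WARS1 passed with median-of-ratios scaling, and WARS1 did not pass without HG+OE-FGF9 replicate 3. The serine synthesis genes PHGDH, PSAT1 and PSPH and the tRNA synthetase genes GARS1 and AARS1 had log2 fold changes that were negative and did not pass, the smallest in size being -0.88 for PSPH, each without overlap of the groups.

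ATF4, DDIT3 and PPP1R15A had smaller log2 fold changes and did not pass, unlike TRIB3 above. ATF4 mRNA was 208 ± 20.7 and 272 ± 22.4 TPM (log2 fold change -0.39, SE 0.12, adjusted p = 0.041). DDIT3, which encodes CHOP, had 1134, 1182 and 578 TPM against 786, 779 and 561 TPM and overlapping groups (adjusted p = 0.316). PPP1R15A, which reverses the phosphorylation of eIF2, was 165 ± 59.9 and 192 ± 28.5 TPM (adjusted p = 0.472). The plot of the list by library shows the genes that passed and those that did not side by side.

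**Figure D4:**
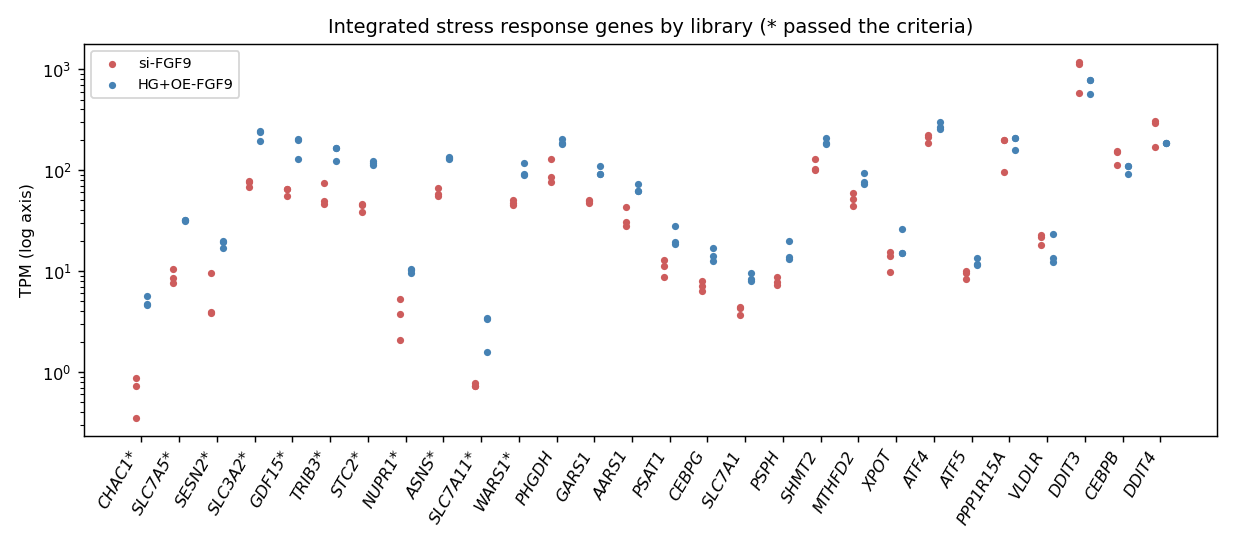
TPM on a log axis for the 28 integrated stress response genes in the 3 si-FGF9 (red) and 3 HG+OE-FGF9 (blue) libraries, ordered by log2 fold change from the most negative. Asterisks mark the 11 genes that passed. From CHAC1 to WARS1 all blue points lie above the red ones, and at the right end DDIT3, CEBPB and DDIT4 do not.

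Since these genes moved together, their promoters were searched for the composite site of ATF4 and C/EBP proteins, written TGATGNAA, on both strands from 250 bases before to 50 after the transcription start in RefSeq GRCh38.p14. A promoter was found for 24 of the 28 genes, and none was in the table for PSPH, SHMT2, SLC7A11 and NUPR1. The letters occurred in 5 of the 24 (20.8%), against 1270 of 35116 promoters in the table (3.62%). A single promoter was searched per list gene, whereas the second share covers every promoter in the table. Since the list holds known targets of ATF4, a higher share is no evidence about these libraries. Among the 11 genes that passed, 9 had a promoter and 3 held the motif, namely CHAC1, ASNS and SLC3A2. AARS1 and SLC7A1 held it without passing. The CHAC1 window below lies inside the GENCODE span of that gene given above, because the GENCODE and RefSeq starts differ. The windows of CHAC1, ASNS and AARS1 are shown on the coding strand because their match lies before the RefSeq start, with the motif in capitals.
CHAC1, chr15:40953236-40953295, plus strand: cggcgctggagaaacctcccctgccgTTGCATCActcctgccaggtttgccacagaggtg
ASNS, chr7:97872443-97872502, minus strand: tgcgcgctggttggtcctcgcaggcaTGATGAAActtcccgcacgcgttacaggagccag
AARS1, chr16:70289660-70289719, minus strand: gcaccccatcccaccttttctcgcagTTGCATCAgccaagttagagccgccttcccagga
In CHAC1 and AARS1 the match reads on the opposite strand and begins at positions -209 and -187 from the start, and in ASNS it begins at position -68. The match is a description of letters and not of binding.

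Other stress programmes gave smaller counts. The median of 20 genes of the unfolded protein response was -0.44. Of them, 3 were lower and 0 higher, beside 8.26% and 2.01% of all genes. They were CRELD2, PDIA4 and HYOU1, which encode folding factors of the endoplasmic reticulum, and HYOU1 did not pass with median-of-ratios scaling. PDIA4 had 98.5, 110.0 and 102 TPM against 260, 266 and 291 TPM (log2 fold change -1.39, SE 0.10, adjusted p = 5.33e-04), and CRELD2 was at -1.56 (SE 0.16). HSPA5, the main chaperone of that compartment, had 1208, 1303 and 606 TPM against 1192, 1215 and 1176 TPM (adjusted p = 0.451). Of 16 listed cytosolic heat shock genes, to which HSPA6 did not belong, HSPB8, a small heat shock protein, alone passed and was lower, at 33.8 ± 1.94 against 105 ± 19.8 TPM. The median of the list was -0.11, 3 members were higher without si-FGF9 replicate 3, and 2 were lower when any of the first 2 replicates of either group was left out. HSPA1A, the inducible HSP70, was 286 ± 167 and 219 ± 34.8 TPM (adjusted p = 0.845). Of 22 NRF2 targets and metallothioneins, 2 were lower and 0 higher, beside 8.26% and 2.01% of all genes. Their median was -0.22. SRXN1, which repairs oxidised peroxiredoxin, had 4.97, 6.56 and 6.21 TPM against 24.1, 25.9 and 26.9 TPM (log2 fold change -1.95, SE 0.16), and GCLM, a subunit of the rate-limiting enzyme of glutathione synthesis, was 1.47 ± 0.154 and 6.08 ± 1.01 TPM. The classical NRF2 targets HMOX1 and NQO1 were at -0.56 and -0.27, and MT1X at 0.69 was on the other side (adjusted p = 0.00376).

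Some inflammatory genes were lower in si-FGF9, in a count that rested on single libraries. Of 20 NF-kappaB and cytokine genes, 6 were lower and 0 higher, beside 8.26% and 2.01% of all genes. The median was -0.27, beside -0.26 for all genes. With median-of-ratios scaling 2 were lower. The lower count was also 2 when si-FGF9 replicate 1, si-FGF9 replicate 2 or HG+OE-FGF9 replicate 3 was left out. CXCL8, a neutrophil chemokine, had 63.2, 79.2 and 53.1 TPM against 142, 141 and 265 TPM and passed in every setting (log2 fold change -1.43, SE 0.26, adjusted p = 0.00768). IL6 had 8.90, 10.3 and 13.5 TPM against 18.84, 20.03 and 40.61 TPM (log2 fold change -1.14, SE 0.30, adjusted p = 0.0266). In both cytokines HG+OE-FGF9 replicate 3 was about 2 times its companions. NFKB1 was 2.46 ± 1.17 and 7.36 ± 2.09 TPM, and RELB, CXCL3 and TNFRSF12A were between -1.03 and -1.01. NFKBIA, the inhibitor that NF-kappaB itself induces, was 34.8 ± 4.29 and 36.6 ± 9.21 TPM (adjusted p = 0.863). Of 26 interferon response genes, 1 was higher and 2 lower, beside 2.01% and 8.26% of all genes. Their median was 0.01. IRF1 was lower at 5.19, 9.59 and 11.2 TPM against 22.9, 23.5 and 26.7 TPM (log2 fold change -1.45, SE 0.26), IFIT5 lower at -1.27, and IFI6 higher at 332, 352 and 351 TPM against 122, 123 and 286 TPM. IFI6 did not pass when any single si-FGF9 replicate, or HG+OE-FGF9 replicate 1 or 2, was left out. ISG15, a ubiquitin-like protein that interferon induces, did not pass (log2 fold change 0.49, adjusted p = 0.00973). Of 10 genes of small RNA silencing, the machinery that an siRNA enters, DGCR8 passed and was lower at 1.21 ± 0.489 against 3.74 ± 0.448 TPM. It did not pass without si-FGF9 replicate 2 or with median-of-ratios scaling. The median was -0.03, and AGO2, which cleaves the target, was 4.02 ± 0.276 and 3.03 ± 0.35 TPM (adjusted p = 0.214).

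Genes of DNA replication mostly stood lower in si-FGF9. Of 24 G1/S and replication genes, 3 were lower and 0 higher, beside 8.26% and 2.01% of all genes. The median was -0.75, beside -0.26 for all genes, and 23 were below 0. PCNA, the sliding clamp of DNA polymerase, had 49.2, 57.8 and 60.3 TPM against 122, 122 and 190 TPM (log2 fold change -1.33, SE 0.19, adjusted p = 0.00382). CDC6, which loads the replicative helicase, and FEN1, the flap nuclease, were at -1.22 and -1.21. The count was 6 to 7 without si-FGF9 replicate 3, HG+OE-FGF9 replicate 1 or HG+OE-FGF9 replicate 2, and 1 with median-of-ratios scaling, where the median was -0.45. Of 26 G2/M genes, 0 passed in limma, 2 had an unadjusted p below 0.05 and the median was -0.34. Without HG+OE-FGF9 replicate 3, 2 of them were higher. MKI67, the proliferation marker, was 3.31 ± 0.234 and 4.2 ± 2.72 TPM (adjusted p = 0.757).

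Mitochondrially encoded genes were lower in si-FGF9. Of the 13 that encode proteins, 9 were lower and 0 higher, beside 8.26% and 2.01% of all genes. The median log2 fold change of the 13 was -1.38. Together they held 4.14%, 4.41% and 7.93% of all TPM in si-FGF9, against 12.2%, 12.9% and 12.1% for HG+OE-FGF9 (exact two-sided permutation p = 0.1, the smallest possible here). The si-FGF9 replicate 3 library stood between its companions and the other group. The genes differed widely among themselves. MT-ATP8, a short gene for an ATP synthase subunit, had 556, 852 and 1473 TPM against 7511, 8196 and 13473 TPM (log2 fold change -3.40, SE 0.35, adjusted p = 0.00169). Its end overlaps the start of MT-ATP6, so that reads there can be assigned to either, and MT-ATP6 was at -1.06 (SE 0.20) and did not pass with median-of-ratios scaling or without si-FGF9 replicate 1 or 2 or HG+OE-FGF9 replicate 2. MT-ND3, of complex I, had 5209, 5324 and 13947 TPM against 27221, 28808 and 22014 TPM (log2 fold change -1.83, SE 0.35). The ribosomal RNA MT-RNR2, which is outside the 13, also passed as lower at 5138 ± 704 and 10521 ± 2527 TPM, and not with median-of-ratios scaling or without si-FGF9 replicate 3 or HG+OE-FGF9 replicate 1 or 2. MT-CO2, the most abundant of them, had 14713, 15262 and 26006 TPM against 26760, 27480 and 27455 TPM and did not pass (log2 fold change -0.60, adjusted p = 0.06). MT-ND6, the protein gene on the light strand, was 1883 ± 517 and 1812 ± 97.9 TPM (log2 fold change 0.02, SE 0.18, adjusted p = 0.939). With median-of-ratios scaling 6 of the 13 were lower, and with correction for GC content, where 3.63% of all genes were lower, 5. The nuclear genes of the respiratory chain did not share this direction. Of 80 tested, 0 passed in limma, although 39 had an unadjusted p below 0.05, and their median was -0.02, or 0.29 with median-of-ratios scaling.

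Cytosolic ribosomal protein genes went slightly the other way. They held 36.8%, 36.4% and 33.8% of all TPM in si-FGF9, against 28.8%, 28.6% and 27.2% for HG+OE-FGF9 (exact permutation p = 0.1). The median log2 fold change of the 83 tested was 0.29, with 71 above 0. Of the 83, 2 were higher and 1 lower, beside 2.01% and 8.26% of all genes. With median-of-ratios scaling the median was 0.61, with 9 higher and 0 lower, beside 4.33% and 4.2% of all genes. RPL5, of the large subunit, had 4217, 4146 and 2962 TPM against 1663, 1643 and 1277 TPM (log2 fold change 1.30, SE 0.17, adjusted p = 0.00289). RPS28, of the small subunit, was at 1.12 (SE 0.15), and the ribosomal-protein-like RPL7L1 was lower at -1.06 (SE 0.19). RPS28 and RPL7L1 did not pass without HG+OE-FGF9 replicate 3, nor RPL7L1 without si-FGF9 replicate 2. Of 22 abundant long noncoding RNAs, 3 were higher and 5 lower, beside 2.01% and 8.26% of all genes. The higher ones were H19, an imprinted RNA (log2 fold change 1.16), and the snoRNA host genes ZFAS1 and SNHG5. ZFAS1 had 2259, 2327 and 1439 TPM against 1041, 1044 and 864 TPM, at the threshold with a log2 fold change of 1.00 (SE 0.19). It did not pass without si-FGF9 replicate 1 or 2 or HG+OE-FGF9 replicate 3, and the higher count was 1 without either of these si-FGF9 replicates. SNHG5 was 263 ± 58.4 and 123 ± 8.09 TPM (log2 fold change 1.07, SE 0.17).

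**Figure D5:**
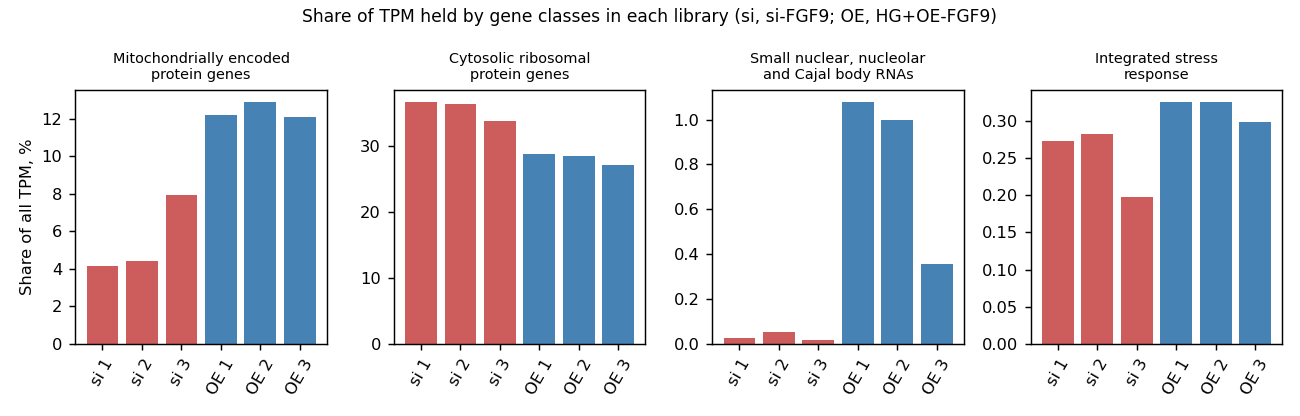
Share of all TPM (%) held by mitochondrially encoded protein genes, cytosolic ribosomal protein genes, small nuclear, nucleolar and Cajal body RNAs, and integrated stress response genes, 1 bar per si-FGF9 (si, red) or HG+OE-FGF9 (OE, blue) library, on axes that start at 0 and differ between panels. Mitochondrial genes hold 4.14% to 7.93% in si-FGF9 and 12.1% to 12.9% in HG+OE-FGF9, and the small RNAs at most 0.0546% and at least 0.354%.

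Small nuclear, nucleolar and Cajal body RNAs were more abundant in every HG+OE-FGF9 library. Summed over all 2384 listed genes, they held 248, 546 and 169 TPM in si-FGF9, against 10843, 10014 and 3544 TPM for HG+OE-FGF9 (exact permutation p = 0.1, the smallest possible here). Of these genes 38 reached the minimum, of which 26 were at 1 TPM or more in all HG+OE-FGF9 libraries and 3 in all si-FGF9 libraries. Since the minimum was mostly met through the group where they were high, no count or median of the tested members is given. HG+OE-FGF9 replicate 3 had about 1 TPM for every 3 of its companions. RNU4-2, the U4 RNA of the spliceosome, had 0, 10.4 and 0 TPM against 1971, 1977 and 516 TPM (adjusted p = 0.00171). RNU4-1, another copy of U4, and SNORD118, the U8 RNA that processes ribosomal RNA, were listed at 0 in all si-FGF9 libraries and at 244 to 805 TPM and 96.3 to 586 TPM in HG+OE-FGF9. RN7SK, a small RNA that holds the elongation kinase P-TEFb inactive, had 150, 107 and 71.1 TPM against 4759, 4673 and 1462 TPM (log2 fold change -4.92, SE 0.46, adjusted p = 0.00115). The other 4 lower RNAs of the long noncoding list, the RNA polymerase III transcripts RMRP, RPPH1, RN7SL1 and RN7SL2, were at -3.52, -3.15, -3.03 and -2.88, all without overlap. These RNAs lack poly(A) tails and are short, and neither the enrichment of the libraries for poly(A) or against ribosomal RNA nor the size selection is described in the sources used here. The part of library preparation in these differences was not tested. RNVU1-32 and RNU1-2, near-identical members of the U1 family, stood on opposite sides at 3.59 and -7.81, and reads of such copies can be assigned to either. RNVU1-32 did not pass without si-FGF9 replicate 2 or 3 or HG+OE-FGF9 replicate 1 or 2.

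At the extreme, 27 genes had at least 5 TPM in all HG+OE-FGF9 libraries and less than 0.5 TPM in all si-FGF9 libraries, among them SERPING1 and SNORD118, and 3 had the reverse. Pseudogenes of ribosomal proteins gave large single differences. RPL3P4 had 1217, 1137 and 852 TPM in si-FGF9 against 15.1, 23.2 and 0.83 TPM (log2 fold change 6.89, SE 0.84, adjusted p = 0.00245), while its parent gene RPL3 was 1479.9 ± 82.1 and 1199 ± 94 TPM. Of the 349 windows of 75 bases in RPL3P4, 253 (72.5%) also occur in RPL3, so that its reads may come from either. RPL22P1 had 218, 314 and 197 TPM against 0, 46.8 and 0 TPM, with 65.2% of its windows in RPL22, and did not pass without si-FGF9 replicate 3 or HG+OE-FGF9 replicate 3. RPL36P4 shares 0 windows with RPL36 and was listed at 0 in si-FGF9 against 117, 104 and 15.47 TPM. Over all 93 such pseudogenes tested, 7 were higher and 4 lower, beside 2.01% and 8.26% of all genes. Their median was 0.16, and 4 were higher without HG+OE-FGF9 replicate 3. The antisense gene IER3-AS1 had 257, 212 and 164 TPM against 22.3, 11.8 and 3.27 TPM (log2 fold change 4.27, SE 0.54), and IER3 was 279.8 ± 24.5 and 308 ± 10.6 TPM. Strandedness is not stated, so that reads of IER3-AS1 and an overlapping gene cannot be told apart.

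Other large families had counts near or above the background. Of 257 zinc finger genes, 31 were lower and 3 higher, beside 8.26% and 2.01% of all genes, with a median of -0.43. At 1 TPM or more there were 233 in every HG+OE-FGF9 library and 173 in every si-FGF9 library. The minimum was thus met more often through HG+OE-FGF9, which can tilt the zinc finger count and median. Scaled by the median of ratios, their median was -0.21, 14 passed as lower and 8 as higher. The background on that scale is 4.2% lower and 4.33% higher among all genes. Of 30 replication-dependent histone genes, 8 were lower and 3 higher, with a median of -0.38. Of the 30, 27 were at 1 TPM or more in all HG+OE-FGF9 libraries and 15 in all si-FGF9 libraries. Their minimum too was met more often through HG+OE-FGF9, which can tilt this count and median. Summed over all 69 listed, they held 1148, 1125 and 389 TPM in si-FGF9, against 495, 486 and 272 TPM for HG+OE-FGF9 (exact permutation p = 0.3). H1-2, a linker histone, was 241 ± 69 and 88.5 ± 22.9 TPM and H2BC12 11.3 ± 0.592 and 31.4 ± 1.57 TPM, on opposite sides, and the higher count was 8 without si-FGF9 replicate 3. Of 37 proteasome subunits 3 were lower, beside 8.26% of all genes. They were PSMD2, PSMD3 and PSMD12 of the regulatory particle, at -1.06, -1.07 and -1.09. Their list had 0 with median-of-ratios scaling and 5 without si-FGF9 replicate 2 or 3 or HG+OE-FGF9 replicate 1 or 2. Of 8 tubular injury genes, whose median was 0.50, 2 were higher and 1 lower, beside 2.01% and 8.26% of all genes. CD24, a surface protein of regenerating tubule cells, and SOX4 were higher, and ANXA3 was lower at -1.23. CD24 had 129, 135 and 96.9 TPM against 47.2, 48.6 and 61.9 TPM (log2 fold change 1.18, SE 0.17, adjusted p = 0.00385). SOX4 did not pass without si-FGF9 replicate 1 or 2 or HG+OE-FGF9 replicate 2, nor ANXA3 without HG+OE-FGF9 replicate 3 or with median-of-ratios scaling. HAVCR1, which encodes the injury marker KIM-1, was 3.86 ± 1.15 and 3.94 ± 2.43 TPM (adjusted p = 0.918). Of the 10 proximal tubule genes tested, GGT1, a brush border enzyme, was higher at 186 ± 10.3 against 83.8 ± 2.37 TPM (log2 fold change 1.14, SE 0.10, adjusted p = 0.001), and SLC5A2, the glucose cotransporter SGLT2, lower at 0.423 ± 0.439 against 2.26 ± 0.862 TPM. SLC5A2 was near the minimum and did not pass without si-FGF9 replicate 1 or 2 or HG+OE-FGF9 replicate 1 or 2, nor with median-of-ratios scaling.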

How the data were processed

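RNA-seq of HK2 cells gave 1 table per library, and 6 of the 12 libraries were used. The deposited values sum to 1000000 per library and carry 2 decimals, so they were taken as TPM made by the authors. This unit was read from the values, since no label or header names it. The submitters' processing notes list Bowtie 0.12.2 and the mouse build mm8, although rows carry human Ensembl identifiers. The quantification tool is not given in the sources used here, and depth is unknown. Loci are GRCh38, GENCODE release 29.

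Of 62703 identifiers, 62625 matched the name table. Log2(TPM + 1) was fitted in limma 3.58.1 (R 4.3.3) with a variance trend and group as the single term, for genes at 1 TPM or more in 3 libraries. Fold changes on this scale understate those of low genes. The calls follow the criteria in the study's methods, and Benjamini-Hochberg values stand beside them. Exact permutation tests (scipy 1.17.1) were two-sided. Tables and figures used Python 3.11.15, pandas 2.3.3 and matplotlib 3.10.9. The fit was tested on simulated data.

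The genes compared and the gene lists were chosen with earlier results of these data known. Genes named by rank had an adjusted p under 0.05, a mean of at least 5 TPM and no overlap between groups. They were the 12 protein-coding genes and 4 other genes with the largest log2 fold change, and the 6 with the largest difference of mean TPM, in each direction. Up to 6 members per list were named for level, fold or a defining role, and any further members were chosen after their values were seen. The pseudogene list was limited to annotated pseudogenes and the nuclear respiratory chain list to protein-coding genes after the annotation was seen. Alternatives covered the low-value filter, pseudocount, scaling, GC content and length, variance model, libraries fitted, replicate block, call rule and leaving out each library. The count-based alternative did not apply to TPM. Some genes, and 3 lists whose results rest on them, are not reported here.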

Additional observations from a re-analysis of the deposited data

How the results depend on the processing

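The total of 1301 genes kept within 1.5 times of its value in all alternatives but the stricter filter. The division by direction did not. With the median of ratios it was 548 higher and 531 lower with a median log2 fold change of -0.01, with quantile normalization 549, 455 and 0.01, with correction for GC content 532, 448 and 0.01, and with GC content and length 527, 450 and -0.01. The corrections for GC content, with or without length, also removed the mean deviation of each library from the gene means. Any separate part of GC content or length in these splits was not tested. With a minimum of 1 TPM in all 6 libraries, 842 genes passed, 659 of them lower. The median was -0.09 with no filter and -0.37 on TPM without mitochondrially encoded genes. Leaving out 1 library gave 1116 to 1401 genes, 210 to 346 higher and 906 to 1094 lower, with medians from -0.31 to -0.17. What sets the split was not tested beyond these scalings. Of 192 listed or named genes that passed, 102 passed in every alternative in which they were tested, which was all 21 for 61 of them and 17 to 20 for the other 41. The call was lost in at least 1 alternative for 90, and 0 changed direction where tested.

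The groups share replicate numbers, and deviations of same-numbered libraries correlated at 0.0291, -0.1622 and -0.1364. Deviations from a mean of 3 libraries depend on each other, so that these values cannot tell whether same-numbered libraries share a culture or batch. With the replicate block 1178 genes passed, 220 higher and 958 lower. With the replicate block and correction for GC content there were 504 higher and 422 lower, with a median of 0.01.

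TPM hold no record of depth, so that a listed 0 has no upper limit, and 3 libraries against 3 cannot give an exact p below 0.1. The siRNA, the vector and the glucose cannot be told apart in this comparison.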
